A study of Mus musculus with 6 samples.

Results

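The 30 genes described here encode the machinery that carries proteins into mitochondria. They are the genes of the arrays whose symbol begins with Timm or Tomm, together with Pam16, Grpel1, Pmpca, Pmpcb, Samm50 and Mtx1, out of 22180 genes that had a probe set of their own. Tomm5, Tomm6 and Tomm6os also have such symbols, but their probe sets carried further gene names, so they were not analysed here. The rule uses names and no measured value, but it was set with earlier results of these data known.

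By the label of their cell type, the cells were common lymphoid progenitors without the surface marker Ly6D, early bone marrow cells from which T, B and natural killer cells arise, although the tissue label names stromal cells of the bone marrow. They were sorted as LineageLo, cKit+, Sca+, CD127+, Thy1.2- and Ly6D- cells from mice 6 to 8 weeks old. The 3 mutant samples came from OcnCre+;iDTR+/- mice, in which the osteocalcin promoter, active in bone-forming cells, drives Cre, and Cre switches on a receptor for diphtheria toxin. The 3 control samples came from OcnCre-;iDTR+/- mice, which carry the receptor allele but no Cre. All mice of both groups received diphtheria toxin daily for 4 weeks and were sampled the next day, so the comparison concerns the loss of osteocalcin-expressing cells around the progenitors. Each sample was measured on 1 Affymetrix array, and a level below is a log2 intensity as deposited, in which 1 unit is a doubling. The labels do not say whether a sample was 1 mouse or a pool, so p-values measure the spread between these samples only. In such bulk samples, fewer cells of a type and less RNA per cell cannot be told apart.

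Most mitochondrial proteins are made in the cytosol and must be imported. The TOM complex of the outer membrane receives them, the SAM complex inserts barrel proteins into the outer membrane, and small TIM chaperones escort hydrophobic proteins through the space between the membranes. TIM22 inserts carriers into the inner membrane, whereas TIM23 and its motor pull proteins with a presequence into the matrix, where the processing peptidase cuts the presequence off. Import capacity is a condition for the respiratory chain, on which proliferating lymphoid cells draw.

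No import gene passed the test between mutant and control progenitors, but most had a lower mutant mean. With limma and Benjamini-Hochberg adjustment over 13308 tested genes, 0 of 30 members had an adjusted p under 0.05, as did 0% of all tested genes. The mutant mean was lower for 26 of the 30 members, where 57.5% of all tested genes had a lower mutant mean. The median log2 difference, mutant minus control, was −0.20 over the members and −0.04 over all tested genes. With the dimmest 60% of genes left out, 25 of 27 tested members and 69.8% of tested genes were lower. The medians were then −0.22 over the members and −0.12 over all tested genes. At an unadjusted p under 0.05, 2 members were lower, Timm17b and Tomm22, and 0 were higher, where 6.02% of all tested genes were lower and 2.01% higher. The count of 2 became 11 without mutant replicate 1, where 16.1% of all tested genes were lower at this p, and 1 without control replicate 3, where 2.07% were. The 95% interval of the difference included 0 for the other 28 members.

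The low values came from mutant replicates 2 and 3. Relative to the control mean of each gene, the members' median was 0.02, −0.49 and −0.15 in mutant replicates 1, 2 and 3, against −0.02, 0.00 and 0.00 in control replicates 1, 2 and 3. Mutant replicate 2 lay below all 3 controls for 23 members, mutant replicate 3 for 17 and mutant replicate 1 for 6, and mutant replicate 1 lay above all controls for 9. Among all tested genes, 45.0%, 40.5% and 23.8% lay below all controls in mutant replicates 2, 3 and 1. In mutant replicate 1, 28.6% of all tested genes lay above all controls, a share close to that of the members. The standard deviation was larger among mutants than among controls for 28 of 30 members, with a median of 0.36 against 0.12, and for 72.4% of all tested genes. Without mutant replicate 1 the members' median difference was −0.36, and without mutant replicate 2 it was −0.09, with 19 of 30 members lower.

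**Figure D1:**
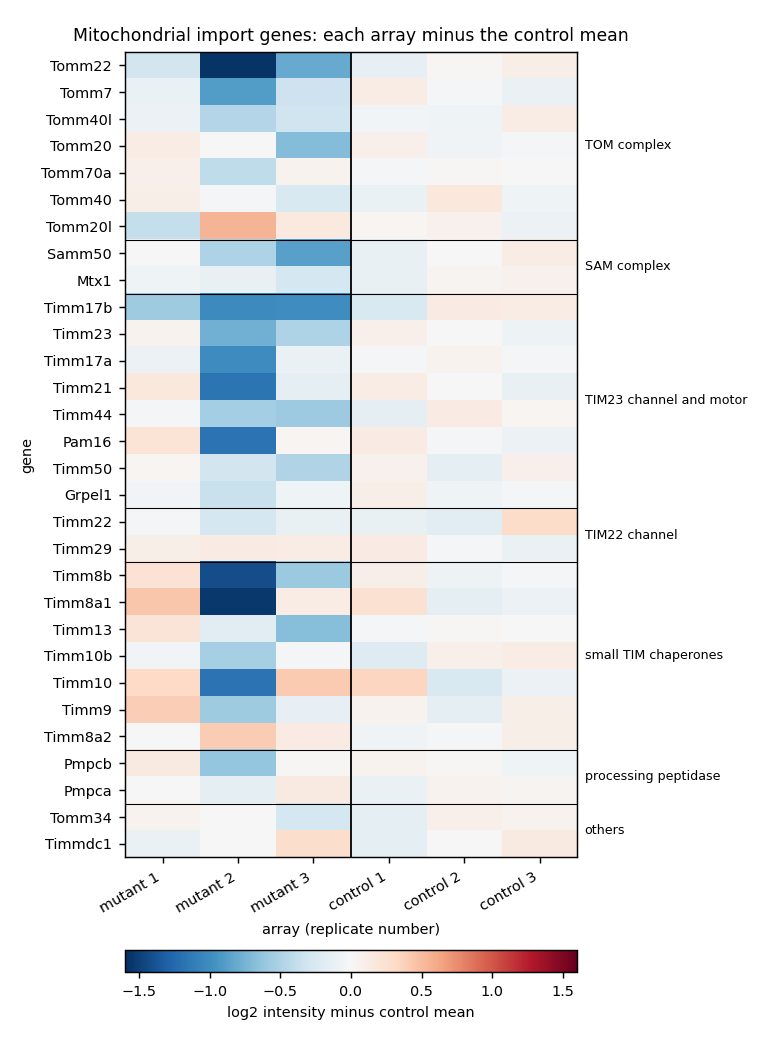
Log2 intensity of each of the 30 import genes (rows, grouped by role) on each of the 6 arrays (columns, mutants left of controls), minus that gene's control mean; blue is lower and red is higher. The mutant replicate 2 column is the bluest, with 23 genes below all controls. In mutant replicate 1, 6 genes lie below all controls, 9 above and 15 within their range.

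The arrays differed in ways that reach beyond these genes. Over probe sets with 1 symbol, the correlation of mutant replicate 2 with each other array was 0.96 to 0.97, and that among the other 5 was 0.98 to 0.99, a description across probe sets that are not independent. In the brightest 10% of tested genes, the median relative to the control mean was 0.00, −0.42 and −0.18 in mutant replicates 1, 2 and 3, against −0.03, 0.00 and 0.02 in control replicates 1, 2 and 3. The import genes had a median level of 7.35, above the 6.28 of all tested genes. When trends in brightness between arrays were removed by cyclic loess, 18 of 30 members and 49.8% of all tested genes had a lower mutant mean, and the members' median difference was −0.06. With repeated quantile normalization, 20 of 30 members and 49.9% of all genes were lower, with a median of −0.08. Centring arrays on their medians gave 27 of 30 and 69.6%, with a median of −0.26. The part of brightness in the members' differences was not tested.

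The sorted cells carried lymphoid progenitor transcripts. Il7r, which encodes CD127, was at 9.80, 9.72 and 9.78 in mutants and 9.81, 10.35 and 10.16 in controls, and Dntt, an enzyme of early lymphoid cells, lay between 10.61 and 11.04 on all 6 arrays. Kit lay between 6.96 and 7.41 and Flt3 between 6.62 and 7.36. B lineage transcripts were bright too, with Igll1 at 10.43 to 11.23, Cd79a at 10.02 to 10.73 and Cd79b at 10.02 to 10.91. Ebf1 lay at 9.76 to 10.02 and Pax5 at 7.92 to 8.80, whereas Vpreb1 was dim, at 4.06 to 4.14. Myeloid transcripts were bright as well, with the granule enzyme gene Mpo at 10.51 to 11.45 in mutants and 9.48 to 11.36 in controls. The median of 7 tested myeloid markers relative to the control mean was 0.72, −0.25 and 0.40 in mutant replicates 1, 2 and 3, against 0.79, −0.79 and −0.05 in control replicates 1, 2 and 3, with 6 of 7 higher in the mutant mean. Of 6 tested lymphoid progenitor markers 6 had a lower mutant mean, as had 4 of 5 B lineage and 4 of 4 T lineage markers, while 3 of 3 erythroid and 4 of 4 megakaryocyte markers had a higher one. Of 5 tested osteoblast and stroma markers 3 had a lower mutant mean, and the osteocalcin gene Bglap was at 5.12 to 5.50 in mutants and 5.04 to 5.23 in controls. The values carry no detection call, and the part of these markers in the import genes' differences was not tested.

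The start sites of the members were set beside their values, since genes of this kind are known to share motifs there. RefSeq windows of build GRCm38.p6, from 250 bases before to 50 after an annotated start, were found for 27 of the 30 members. The windows were searched on both strands for the letters GCGCANGCG of the factor NRF1, CCGGAAGTG of GABPA and AANATGGCG of YY1. At least 1 of them occurred in 14 of 27 members and in 11.0% of 27025 genes with a window. The YY1 letters occurred in 4 members (2.76% of all genes), the NRF1 letters in 4 (7.03%) and the GABPA letters in 6 (2.25%). The members' windows had a higher median content of G and C than all windows. The 27025 genes also include genes that were not tested here. These counts were not adjusted for either point, and whether the motifs are more frequent in members for another reason was not tested. The windows shown run from 50 bases before to 50 after the start, 5′ to 3′. The first pair belongs to the members with the lowest p, whose windows held none of the letters, and the others show, in capitals, the YY1 letters or the NRF1 letters (on either strand), which had no overlap with another of the motifs.
Timm17b, chrX:7899286-7899385, plus strand: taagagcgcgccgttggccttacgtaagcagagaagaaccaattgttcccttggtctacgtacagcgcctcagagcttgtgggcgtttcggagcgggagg
Tomm22, chr15:79670818-79670917, plus strand: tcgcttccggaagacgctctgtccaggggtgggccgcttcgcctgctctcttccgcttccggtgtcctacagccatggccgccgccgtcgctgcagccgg
Samm50, chr15:84192190-84192289, plus strand, YY1 letters: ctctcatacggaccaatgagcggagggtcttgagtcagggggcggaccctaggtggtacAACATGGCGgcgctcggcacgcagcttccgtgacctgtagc
Mtx1, chr3:89213858-89213957, minus strand, YY1 letters: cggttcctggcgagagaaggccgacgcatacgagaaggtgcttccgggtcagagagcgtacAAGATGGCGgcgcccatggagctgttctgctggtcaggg
Timm44, chr8:4275856-4275955, minus strand, YY1 letters: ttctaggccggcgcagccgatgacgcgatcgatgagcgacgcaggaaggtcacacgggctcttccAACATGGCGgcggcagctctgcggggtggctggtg
Timm50, chr7:28311997-28312096, minus strand, YY1 letters: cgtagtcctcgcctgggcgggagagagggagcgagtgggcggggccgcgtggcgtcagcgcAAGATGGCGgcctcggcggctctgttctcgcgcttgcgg
Tomm20, chr8:126945872-126945971, minus strand, NRF1 letters: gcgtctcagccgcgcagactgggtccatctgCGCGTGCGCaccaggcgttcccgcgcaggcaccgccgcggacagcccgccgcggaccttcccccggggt
Pam16, chr16:4624897-4624996, minus strand, NRF1 letters: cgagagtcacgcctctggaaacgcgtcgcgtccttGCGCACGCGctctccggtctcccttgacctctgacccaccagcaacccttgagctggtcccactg
Timm8b, chr9:50603851-50603950, plus strand, NRF1 letters: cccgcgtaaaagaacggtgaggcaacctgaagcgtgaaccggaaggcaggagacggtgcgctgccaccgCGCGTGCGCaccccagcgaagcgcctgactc

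In the outer membrane TOM complex, the mutant mean was lower for 6 of 7 members (median difference −0.19), and 3 of the 5 members whose groups did not overlap were among them. The groups of 5 of 30 members did not overlap, all 5 lower in mutants, where 9.99% of all tested genes were separated in this direction and 5.4% in the other. This count was 14 without mutant replicate 1 (27.6% of all genes) and 9 without control replicate 1 (19.3%). With the dimmest 60% of genes left out it was 5 of 27 tested members, against 13.1% of tested genes. Tomm22, the central receptor of the complex, was at 7.94, 6.66 and 7.43 in mutants and 8.10, 8.26 and 8.34 in controls. All its mutant values lay below all control values, and mutant replicate 2 was lowest by far. The difference was −0.89 ± 0.29 (SE; 0.54 of the control level; unadjusted p = 0.0155 and adjusted p = 0.594 in limma), and −0.55 without mutant replicate 2.

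Tomm7, a small subunit that modulates the assembly of the complex, stood at 7.37, 6.59 and 7.15 in mutants and at 7.61, 7.47 and 7.37 in controls, so the groups did not overlap but nearly touched. Its difference was −0.45 ± 0.20 (SE), and −0.22 without mutant replicate 2. Tomm40l, a paralog of the pore gene Tomm40, was at 6.45, 6.07 and 6.22 in mutants and 6.49, 6.47 and 6.66 in controls, a difference of −0.29 ± 0.14. Its groups were separated by 0.02. The pore gene Tomm40 itself differed by −0.06 ± 0.14, and the receptor genes Tomm70a and Tomm20 by −0.09 ± 0.15 and −0.19 ± 0.21. Tomm20 was low on 1 mutant array only, at 8.44, 8.32 and 7.63 in mutants and 8.40, 8.27 and 8.29 in controls. Tomm20l, a paralog of Tomm20, had a higher mutant mean, with 5.21, 6.13 and 5.75 in mutants and 5.62, 5.67 and 5.49 in controls. Its mutant values ran both below and above the controls (0.10 ± 0.22), and the difference turned to −0.11 without mutant replicate 2. Under cyclic loess 3 and under repeated quantile normalization 4 of the 7 TOM members were lower, with a median difference of 0.01 under cyclic loess and −0.00 under repeated quantile normalization. Tomm22, Tomm7 and Tomm40l were lower in both.

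**Figure D2:**
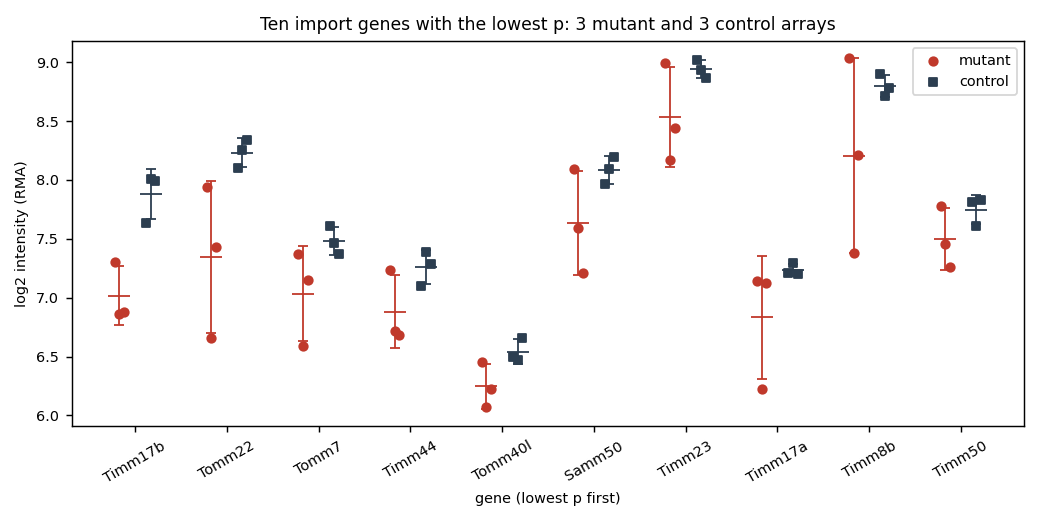
Log2 intensity of the 10 import genes with the lowest p, with 3 mutant arrays (red circles, left) and 3 control arrays (dark squares, right) per gene; horizontal ticks are means and bars are SD. The mutant and control values of Timm17b, Tomm22, Tomm7, Tomm40l and Timm17a do not overlap, with the widest gap (0.33) in Timm17b, and those of the other 5 genes do.

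Both genes of the SAM complex had a lower mutant mean. Samm50, the barrel that inserts other barrel proteins, was at 8.09, 7.59 and 7.21 in mutants and 7.96, 8.10 and 8.20 in controls. Mutant replicate 1 lay within the controls and mutant replicate 3 was lowest, and the difference was −0.46 ± 0.21 (SE; unadjusted p = 0.0668 in limma). Without mutant replicate 3 it was −0.25 and without mutant replicate 1 −0.69. Mtx1, a metaxin that receives proteins for Samm50, differed by −0.16 ± 0.12, and by −0.02 with repeated quantile normalization and −0.03 with cyclic loess.

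The TIM23 channel and its motor were the largest group in which all members, 8 of 8, were lower in the mutant mean. The median difference was −0.38, −0.24 with repeated quantile normalization and −0.22 with cyclic loess, under both of which all 8 stayed lower. Without mutant replicate 2 the median was −0.16, with 6 of 8 lower. Timm17b, one of 2 alternative Timm17 subunits that line the channel, was at 7.31, 6.86 and 6.88 in mutants and 7.63, 8.01 and 7.99 in controls. Every mutant array lay below every control array, with a gap of 0.33 between the nearest pair, and here mutant replicate 1 was low too. The difference was −0.86 ± 0.17 (SE; 0.55 of the control level; 95% interval −1.25 to −0.47). Its unadjusted p in limma, 0.000987, was the 6th lowest of 13308 genes, and its adjusted p was 0.594. With array weights, where 2960 genes passed the threshold, the adjusted p in limma was 0.00786. Over the other alternatives it was 0.0842 to 0.886. Leaving out any 1 array gave −1.01 to −0.79.

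Timm17b and its paralog Timm17a had separate profiles over the arrays. Timm17a was at 7.14, 6.23 and 7.13 in mutants and 7.21, 7.29 and 7.20 in controls. Its groups did not overlap, but mutant replicates 1 and 3 lay just under the controls and mutant replicate 2 about 1 unit below them. The difference was −0.40 ± 0.24 (SE), and −0.10 without mutant replicate 2. Whether these paralogs differ in their response was not tested. Timm17b lies on the X chromosome, and the arrays differed in Xist, the RNA that silences an X chromosome in female cells, which was at 8.03, 5.57 and 10.72 in mutants and 11.04, 8.07 and 6.57 in controls. On the same arrays Timm17b was at 7.31, 6.86 and 6.88 in mutants and 7.63, 8.01 and 7.99 in controls. Control replicate 1, with the highest Xist of the controls, was the lowest control for Timm17b. Mutant replicates 2 and 3, with the lowest and the highest Xist of the mutants, were nearly level for Timm17b, at 6.86 and 6.88. The Y-linked gene Eif2s3y was at 7.74, 7.31 and 4.77 in mutants and 4.88, 7.82 and 7.85 in controls, so mutant replicate 1 and control replicate 2 had Y-linked transcripts beside Xist at 8.03 and 8.07. Timm8a1, another member, lies on the X chromosome as well. The part of the sex chromosomes in the differences of Timm17b and Timm8a1 was not tested.

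Timm23, the channel protein itself, was at 8.99, 8.17 and 8.44 in mutants and 9.02, 8.94 and 8.86 in controls. Mutant replicate 1 lay among the controls and the others below them (−0.41 ± 0.20, SE; −0.22 without mutant replicate 2). Timm50, the receptor that hands presequences to the channel, was at 7.78, 7.46 and 7.26 in mutants and 7.81, 7.61 and 7.83 in controls. It differed by −0.25 ± 0.16, and by −0.13 without mutant replicate 3. Timm44, which tethers the motor to the channel, was at 7.24, 6.72 and 6.68 in mutants and 7.10, 7.39 and 7.29 in controls. Mutant replicates 2 and 3 were low to a like degree, and its difference was −0.38 ± 0.17.

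The remaining TIM23 genes were low mainly in mutant replicate 2. Pam16, a motor regulator, was at 8.73, 7.33 and 8.55 in mutants and 8.65, 8.48 and 8.42 in controls, so that its mean difference of −0.31 ± 0.33 (SE) turned to 0.13 without mutant replicate 2. Timm21, which couples the channel to the respiratory chain and the outer membrane, was at 7.18, 5.84 and 6.85 in mutants and 7.12, 7.01 and 6.88 in controls. Its difference was −0.38 ± 0.31, and 0.01 without mutant replicate 2. Grpel1, the nucleotide exchange factor of the motor chaperone, differed by −0.16 ± 0.13.

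**Figure D3:**
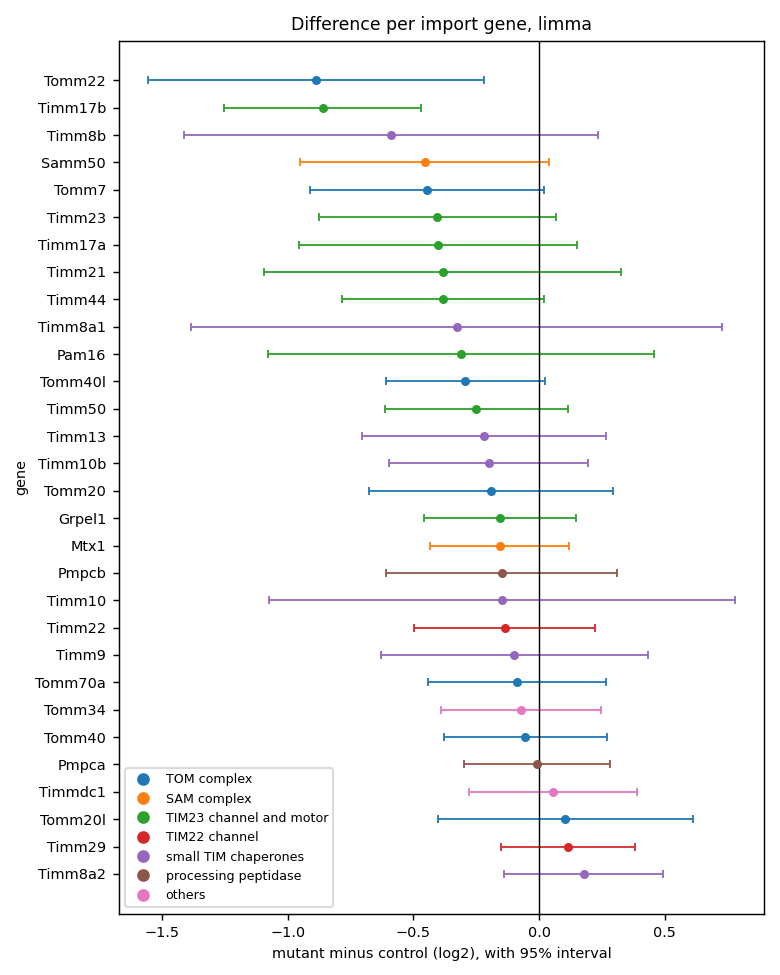
Mutant minus control difference in log2 intensity for each of the 30 import genes, with the 95% interval from limma, coloured by role. The intervals of Tomm22 and Timm17b lie below 0, and those of the other 28 genes include 0.

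Of the small TIM chaperones 6 of 7 had a lower mutant mean (median −0.20, and −0.04 with cyclic loess, with 4 of 7 lower), and none had separated groups. Without mutant replicate 2, 3 of 7 were lower and the median was 0.07. Timm8b, a partner in chaperone complexes of the intermembrane space, was at 9.03, 7.38 and 8.21 in mutants and 8.90, 8.71 and 8.78 in controls. The mutant arrays lay on both sides of the controls, and the difference of −0.59 ± 0.36 (SE) became −0.18 without mutant replicate 2. Timm10, a core chaperone that works with Timm9, was at 9.12, 7.62 and 9.22 in mutants and 9.14, 8.56 and 8.70 in controls. Its mean difference of −0.15 ± 0.40 turned to 0.37 without mutant replicate 2. Timm9 was at 6.84, 5.87 and 6.31 in mutants and 6.50, 6.28 and 6.53 in controls. Timm9 and Timm10 thus had mutant replicate 2 as their lowest array, whereas Timm13, which partners the Timm8 proteins, was lowest in mutant replicate 3, at 8.13, 7.75 and 7.24 in mutants and 7.91, 7.94 and 7.92 in controls.

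Timm8a1, whose human counterpart is mutated in a deafness and dystonia syndrome, had 3 probe sets that disagreed. The brightest was at 9.23, 7.25 and 8.92 in mutants and 9.03, 8.65 and 8.70 in controls, with mutant replicate 2 far below. The next was at 6.89, 6.80 and 6.42 in mutants and 6.99, 6.95 and 6.86 in controls, with mutant replicate 3 lowest. Their differences were −0.33 and −0.23, and that of the last probe set was −0.09. The 2 probe sets of Timm10b, a membrane-bound member of the family, differed by −0.20 and −0.07. Timm8a2 had the most positive difference of the members, at 5.83, 6.23 and 5.95 in mutants and 5.76, 5.79 and 5.92 in controls (0.18 ± 0.14). Its groups overlapped, and mutant replicate 2, the lowest array for most members, was here the highest.

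The TIM22 genes, the processing peptidase and the remaining members lay within 0.15 of the control mean on average. Timm22, the carrier channel, differed by −0.14 ± 0.16 (SE), and Timm29, a subunit of the same complex, was at 5.32, 5.35 and 5.34 in mutants and 5.36, 5.20 and 5.12 in controls (0.11 ± 0.12). Both were dim, close to the level of 4.84 under which genes were not tested. Pmpcb, the catalytic subunit of the peptidase, was at 8.44, 7.67 and 8.31 in mutants and 8.34, 8.30 and 8.22 in controls, so only mutant replicate 2 lay below the controls. Its difference of −0.15 ± 0.20 turned to 0.09 without that array, to 0.03 with repeated quantile normalization and to 0.05 with cyclic loess. Pmpca, the other subunit, differed by −0.01 ± 0.13 (95% interval −0.30 to 0.28). Tomm34, a cytosolic chaperone partner, was at 7.30, 7.25 and 6.95 in mutants and 7.10, 7.32 and 7.29 in controls (−0.07 ± 0.14), and Timmdc1, an assembly factor of respiratory complex I, differed by 0.05 ± 0.15.

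The array with the lowest value differed between members and was mostly mutant replicate 2 or 3. Of the 30, 18 had their lowest value of all 6 arrays in mutant replicate 2, 8 in mutant replicate 3, 1 in mutant replicate 1 and 3 in a control. This count was not made over all tested genes, so it describes no trait of the members. Of all tested genes, 45.0% lay below all controls in mutant replicate 2 and 40.5% in mutant replicate 3. The members lowest in mutant replicate 3 were Samm50, Mtx1, Timm44, Timm50, Timm13, Tomm20, Tomm34 and Tomm40. They include all 4 members with the YY1 letters shown above, 9 to 15 bases after the start, and 0 of the 19 other members with a window had them. For Timm44, 1 of these 4, mutant replicates 3 and 2 were nearly level, at 6.68 and 6.72. The array with the lowest value was looked at after the values were known, and no test was made of this. The split by YY1 letters was not made over all tested genes either, so it shows no link between the letters and an array. The NRF1 letters were in Pam16 and Timm8b, lowest in mutant replicate 2, and in Tomm20 and Timm13, lowest in mutant replicate 3. The GABPA letters were in Timm10, Timm23 and Tomm70a, lowest in mutant replicate 2, and in Timm29, Timm8a2 and Timmdc1, lowest in a control. A match describes letters and is no evidence of binding.

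Other genes of the pathway, which are not members, showed differences of similar or smaller size. Of 15 tested genes of further import machinery, 10 had a lower and 5 a higher mutant mean (median −0.07), and 0 had an unadjusted p under 0.05. The lowest p among them belonged to Immp1l, a subunit of the inner membrane peptidase, at 8.62, 6.58 and 7.98 in mutants and 8.49, 8.63 and 8.37 in controls (−0.77 ± 0.44, SE). Mutant replicate 1 again lay near the top of the control range. Mtx3, a metaxin, differed by −0.23 ± 0.15, and Mipep, which trims presequences further, by −0.30 ± 0.26.

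Of 12 tested genes of matrix folding and proteolysis, 11 had a lower mutant mean (median −0.19), with 0 under an unadjusted p of 0.05. Yme1l1, an inner membrane protease that degrades import subunits, was at 7.37, 6.57 and 7.21 in mutants and 7.44, 7.44 and 7.44 in controls. Its groups did not overlap (−0.39 ± 0.20, SE), but mutant replicate 1 lay within 0.1 of the controls. The prohibitin gene Phb2 and the protease gene Afg3l2 differed by −0.35 ± 0.18 and −0.29 ± 0.16.

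Among 13 tested regulators of mitochondrial biogenesis, 8 had a lower mutant mean (median −0.08). Tfb2m and Tfam, which start transcription of mitochondrial DNA, differed by −0.58 ± 0.29 and −0.36 ± 0.18, and the DNA polymerase gene Polg by −0.19 ± 0.11. In the list of genes that respond to mitochondrial stress, 6 of 10 tested had a lower mutant mean (median −0.04). Mthfd2, a mitochondrial folate enzyme, was at 6.28, 5.91 and 5.99 in mutants and 6.24, 6.38 and 6.68 in controls (−0.37 ± 0.16, unadjusted p = 0.0477 and adjusted p = 0.594 in limma). Shmt2, of the same folate route, differed by −0.36 ± 0.20, while Phgdh, which starts serine synthesis, differed by 0.25 ± 0.14.

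The other mitochondrial gene sets most like the import genes were also lowest in mutant replicate 2. Of 74 tested respiratory chain and ATP synthase genes 69 had a lower mutant mean (median −0.27), and of 70 tested mitochondrial ribosomal protein genes 59 did (median −0.18). The mutant mean was lower for 26 of 30 import genes and for 57.5% of all tested genes. By array, the medians relative to the control mean were 0.09, −0.68 and −0.20 in mutant replicates 1, 2 and 3 for the respiratory chain genes and 0.12, −0.60 and −0.11 for the ribosomal ones. The controls lay between −0.05 and 0.07 in both sets. Separated groups, lower in mutants, were found for 16.7% of import genes, 13.5% of respiratory chain genes, 20.0% of ribosomal genes and 9.99% of all tested genes. No difference between the sets was tested.

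**Figure D4:**
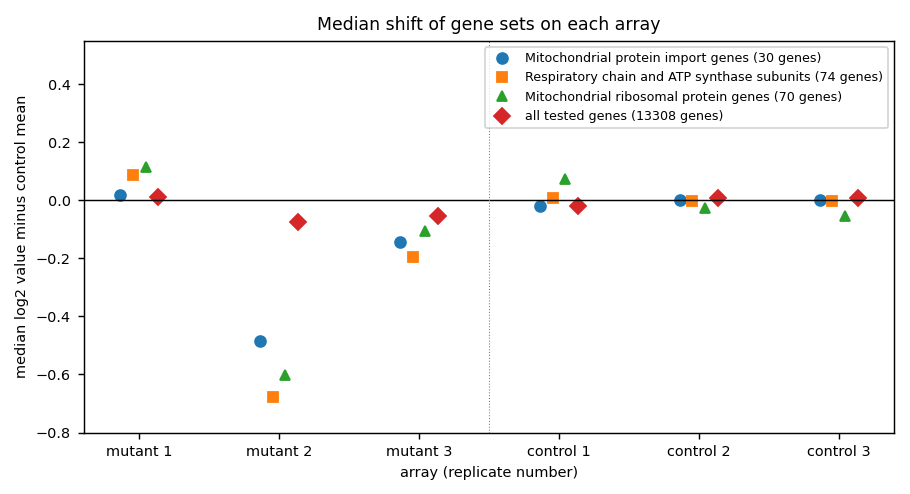
Median log2 value minus control mean of the import genes, the respiratory chain genes, the mitochondrial ribosomal protein genes and all tested genes on each of the 6 arrays, mutants left of controls. All 3 mitochondrial sets are lowest in mutant replicate 2 and near 0 or above in mutant replicate 1, and all tested genes together shift by less than 0.1.

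The genes with a profile most like Timm17b over the 6 arrays were sought among the tested genes that are not members, by Pearson's correlation, as a description of 6 points of 2 groups. They were Hars2, the mitochondrial histidyl-tRNA synthetase gene (r = 0.995), Vps13b (0.995), Slc25a51, a mitochondrial carrier gene (0.993), Fnbp1 (0.993) and Arhgap17 (0.992). Hars2 was at 5.67, 5.47 and 5.49 in mutants and 5.92, 6.06 and 6.04 in controls, and Slc25a51 at 6.29, 6.07 and 6.03 in mutants and 6.42, 6.70 and 6.72 in controls. In both, as in Timm17b, every mutant array was below every control array and control replicate 1 was the lowest control. The same held for Vps13b, Fnbp1 and Arhgap17. The genes were chosen for their likeness to Timm17b, so a shared order of the arrays follows largely from the choice.

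**Figure D5:**
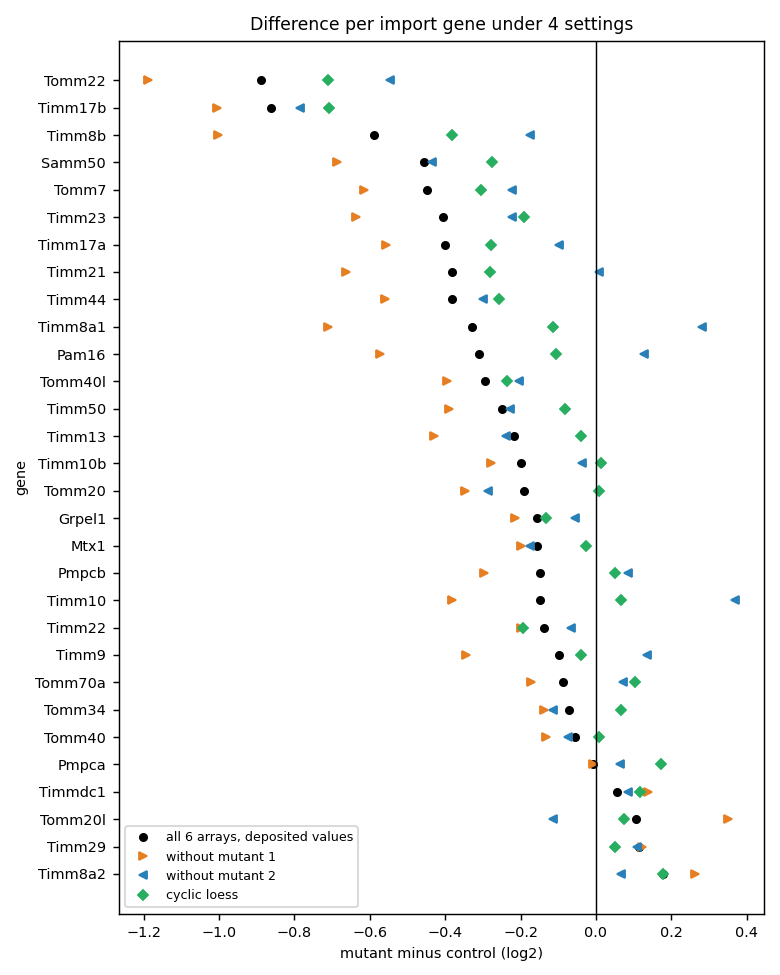
Mutant minus control difference in log2 intensity of each import gene with all 6 arrays (black circles), without mutant replicate 1 (orange), without mutant replicate 2 (blue) and after cyclic loess (green). Without mutant replicate 2, 9 genes change sign, and after cyclic loess 8 do, while Timm17b and Tomm22 stay below −0.5 in all 4 settings.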

How the data were processed

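Log2 probe set intensities of 3 mutant and 3 control samples, 1 array each, were deposited by the authors. The submitters' processing notes name RMA, credited here per the labels. RMA corrects background, equalises array distributions and summarises probes, leaving no detection call. The version of RMA and its build of the genome were not given in the sources used here. Of 41345 probe sets, 23521 had 1 gene symbol, 1814 had several and 16010 had none listed; 23328 matched RefSeq. Each gene was represented by its single-symbol probe set with the highest mean, and the lowest 40% of 22180 genes (under 4.84) were not tested. Groups came from the sample titles. Groups were compared by limma 3.58.1 (R 4.3.3; lmFit, eBayes, 2-sided, Benjamini-Hochberg adjustment, threshold 0.05); ± on differences is limma's standard error. The test was checked on simulated data. Promoter windows are RefSeq's (GRCm38.p6). With 3 arrays per group the number of arrays limits precision.

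The members and lists were chosen with earlier results of these data known. Values on every array were given for the 10 members with the lowest p, the lowest p of each role and up to 3 higher members; others were added after their values were seen. In pathway lists the 3 lowest p were named. Alternatives were 2 other filters, averaged probe sets, another variance prior, array weights, 3 rescalings, the replicate block and leaving out each array.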

Additional observations from a re-analysis of the deposited data

How the results depend on the processing

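Over 15 alternatives, 14 of 30 members kept the sign of their difference in all that tested them. Leaving out 1 array moved the difference of 27 members by over 1.5 times or turned it, 21 of them without mutant replicate 2 and 17 without mutant replicate 1; Timm17b, Timm44 and Tomm40l were not moved so far. The members' median difference was −0.36 to −0.09 on leaving out 1 array, and the count of lower members 19 to 26. Members with separated groups numbered 5 to 14, and those with an unadjusted p under 0.05 numbered 1 to 11. Over all genes, 0 to 4 passed the adjusted threshold on leaving out 1 array (4 without mutant replicate 1, 1 without mutant replicate 2). In limma with equal weights 0 passed, with 1068 genes at an unadjusted p under 0.05. Array weights put 2960 of 13308 tested genes past the threshold, 2145 of them lower in mutants. The 11 of 30 members past it were Timm17b, Tomm22, Timm44, Tomm40l, Samm50, Timm23, Timm8b, Timm50, Timm13, Tomm20 and Mtx1. At an unadjusted p under 0.05 there were 14 members, all lower, against 26% of all tested genes lower at this p. The weight of mutant replicate 3 was 5.20 when estimated within groups and 0.67 without them. Within groups, mutant replicates 1 and 2 had weights of 0.36 and 0.21, so these calls lean on mutant replicate 3. With array weights 20 of 30 members were lower.

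Centring on array medians gave 5 members at an unadjusted p under 0.05, all lower, where 9.08% of all tested genes were lower at this p. The replicate block also gave 5, all lower, against 5.85% of all tested genes, and 0 members past the adjusted threshold. The shared replicate numbers were not shown to pair the samples: deviations of same-numbered samples correlated at 0.13, 0.20 and −0.13, and 2 of 3 mutant samples correlated best with their own number. Among the 15 members that the naming rule selects for full values, 207 of 223 values kept direction and side of the threshold. Of these 15, those that turned were Tomm34 (0.073 with repeated quantile normalization, 0.066 with cyclic loess, −0.141 to 0.036 on leaving out 1 array), Pmpcb (0.019 with array weights, 0.03 with repeated quantile normalization, 0.05 with cyclic loess, −0.297 to 0.085 on leaving out 1 array) and Tomm20l (−0.114 to 0.349 on leaving out 1 array); the cause was not tested. RMA values give no signal over background, which limits dim members such as Timm29.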
